A study of Mus musculus with 6 samples.

Results

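The NRF2 antioxidant pathway was followed through 10 genes in mouse liver: the transcription factor gene Nfe2l2, its inhibitor gene Keap1 and the target genes Nqo1, Gclc, Gclm, Hmox1, Srxn1, Txnrd1, Slc7a11 and Osgin1. They were chosen by name, and the platform annotation assigns 12 probe sets to them, of the 23521 that carry a gene symbol of their own. Keap1 and Slc7a11 have 2 probe sets each, and for these the one with the higher mean is given first. The genes were measured in male mice of the substrain Balb/c, which the series marks WT, and of Balb/cBy, which it marks KD, with 3 mice and 3 arrays a group. All 6 mice were 20 weeks old and had eaten a high-fat diet, with 58% of the energy as fat, for 12 weeks from the age of 8 weeks, so no array shows either substrain on another diet. Which gene the mark KD refers to is not said in the labels. BALB/cBy mice are known to carry a spontaneous deletion in Acads, the gene of short-chain acyl-CoA dehydrogenase, but substrains can differ at other loci as well. Replicates are labelled biological, so the spread within a group is that between mice.

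NRF2 is a transcription factor of the cap'n'collar family that binds, with a small MAF protein as partner, to antioxidant response elements near its target genes. KEAP1 holds NRF2 on a CUL3 ubiquitin ligase and marks it for degradation, and oxidants or electrophiles that modify cysteines of KEAP1 let NRF2 build up. The control therefore acts mostly on the protein, and the mRNA levels of target genes are the usual readout of the pathway on an array. In liver the targets supply glutathione, reduce quinones and peroxides, recycle thioredoxin and break down heme.

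The element can be seen in RefSeq promoter windows (build GRCm38.p6), which run from 250 bases before to 50 bases after a transcription start. Windows matched 8 of the 10 genes, Gclc and Hmox1 being the others, and they were searched on both strands for the core of the antioxidant response element, written TGACNNNGC or TGAGNNNGC, and for TGAGTCA, the site of AP-1 factors, which overlaps the second form. They were also searched for TGATGNAA, the core of the amino acid response element bound by ATF4. The stretches below lie upstream of the start and are shown because they hold such matches, which are in capitals; a match in the opposite strand reads as its reverse complement.
Srxn1, chr2:152105354-152105499, plus strand: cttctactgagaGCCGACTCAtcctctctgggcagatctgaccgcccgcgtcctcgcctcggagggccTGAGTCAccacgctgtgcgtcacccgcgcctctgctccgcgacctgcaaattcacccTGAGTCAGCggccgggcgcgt
Osgin1, chr8:119437036-119437068, plus strand: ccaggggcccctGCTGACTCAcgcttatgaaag
Slc7a11, chr3:50443641-50443722, minus strand: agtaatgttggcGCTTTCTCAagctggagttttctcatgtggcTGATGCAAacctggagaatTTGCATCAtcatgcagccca
Gclm, chr3:122245411-122245443, plus strand: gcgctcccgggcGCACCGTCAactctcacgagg
Nfe2l2, chr2:75704883-75704913, minus strand: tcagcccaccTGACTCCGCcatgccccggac
Txnrd1, chr10:82859102-82859134, plus strand: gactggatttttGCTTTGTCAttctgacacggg
The 8 genes have 10 windows, and a core of the antioxidant response element stood in 6 of them, each of another gene, against 27.9% of all 32544 distinct windows. No core stood in the windows of Nqo1 and Keap1. Taken apart, TGACNNNGC was in 12.4% of all windows, TGAGNNNGC in 17.8%, TGAGTCA in 5.19% and TGATGNAA in 3.91%. In Srxn1 the core TGAGTCAGC begins at position -45 from the start, and another TGAGTCA begins at -102. Osgin1 has the same 9 letters, TGAGTCAGC, in the opposite strand at -99 to -91. Slc7a11 holds TGATGCAA on each strand, beginning at -66 and at -47, beside a core of the antioxidant response element. These are matches of letters in short windows and say nothing of binding in these livers.

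Expression of the pathway was first compared as a whole between the substrains. With limma, 0 of the 10 genes passed a Benjamini-Hochberg adjusted p of 0.05, where 0 of the 23521 probe sets (0%) passed. At an unadjusted p under 0.05 the count was also 0 of 10, against 899 probe sets or 3.82% of all, 2.64% on the higher and 1.18% on the lower side in Balb/cBy. A difference is the Balb/cBy mean minus the Balb/c mean, in log2 units, so that a positive value is higher in Balb/cBy. Of the 10 genes 4 were on the higher side and 6 on the lower side, with a median of -0.0018 beside a median of -0.0031 over all probe sets. The differences ran from -0.27 for Gclc to 0.41 for Hmox1, and every 95% interval held 0. The targets did not share a direction: Hmox1, Srxn1 and Osgin1 had the largest positive differences, and Gclc, Gclm and Nqo1 the largest negative ones. Hmox1 lay beyond 97.7% of all probe sets in the size of its difference and Srxn1 beyond 97.1%, whereas Nfe2l2 and Keap1 lay beyond 1.25% and 1.35%. In bulk liver RNA, fewer cells of a type and less RNA per cell cannot be told apart.

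**Figure D1:**
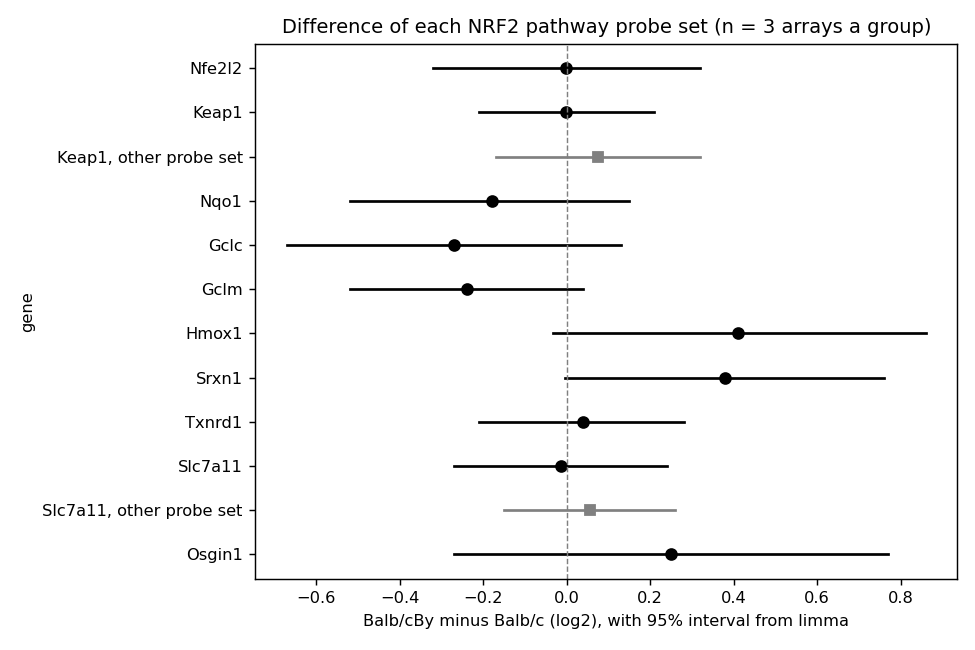
Balb/cBy minus Balb/c difference in log2 units for the 12 probe sets, from 3 arrays a group, with bars for the 95% interval of limma; black circles are the main probe sets and grey squares the other ones of Keap1 and Slc7a11. Every interval holds 0, with Hmox1 (0.41) and Srxn1 (0.38) farthest to the right and Gclc (-0.27) farthest to the left.

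The 6 arrays were alike in signal, with medians over the tested probe sets between 7.98 and 8.03 and correlations across genes from 0.977 to 0.991. The labelled liver was checked with 15 hepatocyte markers, whose mean log2 value lay between 12.41 and 12.54 on every array. Alb, serum albumin, read 14.16 to 14.22, whereas Ass1, a urea cycle enzyme, read 7.80 to 8.33, near the background level given below. Acads averaged 11.43 ± 0.13 (SD, n = 3) in the Balb/c livers and 10.77 ± 0.17 (SD, n = 3) in those of Balb/cBy, without overlap, at a limma adjusted p of 0.319. Array weights from limma were highest for Balb/cBy replicate 3 (2.47) and Balb/c replicate 1 (2.04), and lowest for Balb/cBy replicate 1 (0.471) and Balb/c replicate 3 (0.635). Balb/c replicate 3 also read highest for exocrine pancreas markers, 7 of 10 of them measured, at a mean of 8.38 beside 7.62 to 7.90 on the other arrays, and lowest for macrophage markers. As a stand-in for background, 8.02 was taken, the 95th percentile of the mean values of 1105 olfactory receptor genes. Nqo1, Slc7a11 and the second Keap1 probe set lay under it on average, so that a difference in them may be understated.

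The genes of the factor and of its inhibitor had nearly equal means in the substrains. Nfe2l2, the gene of NRF2, read 10.20, 10.21 and 10.66 in the Balb/c livers and 10.29, 10.44 and 10.33 in those of Balb/cBy. The Balb/cBy values lay inside the range of Balb/c, in which replicate 3 stood above the other arrays. The difference was -0.0018 ± 0.14 (SE), with a 95% interval from -0.32 to 0.32, or 0.801 to 1.24 times the Balb/c level. Without Balb/c replicate 3 it was 0.15 ± 0.10 (SE), still not passing (limma adjusted p = 0.983). Keap1 read 9.02, 8.97 and 8.88 in Balb/c and 8.89, 8.96 and 9.02 in Balb/cBy. The groups covered nearly the same range, and the difference of -0.0019 ± 0.091 (SE) had an interval of -0.21 to 0.21. The second Keap1 probe set differed by 0.074 ± 0.11 (SE), also with overlapping groups.

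A list of other genes around NRF2 was likewise not called. This list holds the KEAP1 ligase, the small MAF partners, the BACH repressors that compete for the same element and proteins that bind KEAP1. It also holds genes outside these groups, among them Btrc and Nfe2l3. Of its 17 genes 16 were measured, 10 on the higher and 6 on the lower side, with 0 passing in either direction, 0 at an unadjusted p under 0.05 and a median of 0.019. Without Balb/c replicate 3 the sides turned, to 6 higher and 10 lower with a median of -0.018, and without Balb/cBy replicate 2 they were likewise 6 and 10. The smallest p-values belonged to Mafg, a small MAF partner (-0.17 ± 0.11 SE), and Ptma, prothymosin alpha (0.16 ± 0.11 SE). They were followed by Cul3, the ligase scaffold (-0.33 ± 0.24 SE), and Bach1, a repressor of Hmox1 (0.27 ± 0.26 SE). The wide error of Cul3 came with a value of 9.96 on Balb/c replicate 3, against 8.83 to 9.20 on the other arrays. That of Bach1 came with 10.30 on Balb/cBy replicate 2, against 9.15 to 9.73 elsewhere.

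Gclc and Gclm, the catalytic and modifier subunits of glutamate-cysteine ligase, which makes the rate-limiting step of glutathione synthesis, had lower means in Balb/cBy, by less than their error allows to call. Gclc read 11.54, 11.53 and 12.15 in Balb/c and 11.47, 11.60 and 11.35 in Balb/cBy. The groups overlapped, since only Balb/c replicate 3 lay above all Balb/cBy arrays. The difference was -0.27 ± 0.17 (SE), with an interval from -0.67 to 0.13 and a limma adjusted p of 0.999. Without Balb/c replicate 3 it was -0.064 ± 0.11 (SE). Gclm read 11.98, 11.78 and 12.20 in Balb/c and 11.80, 11.74 and 11.70 in Balb/cBy. Here the Balb/cBy arrays lay close together, and they overlapped with Balb/c by a single array. The difference was -0.24 ± 0.12 (SE), or 0.846 times the Balb/c level with an interval of 0.697 to 1.03, and -0.13 ± 0.11 (SE) without Balb/c replicate 3. The subunits thus had differences of like size, and both had their highest value on the same Balb/c mouse. That array is the one with the high pancreas and low macrophage marker values, whose part in these differences was not tested.

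Slc7a11, the cystine transporter that feeds cysteine into glutathione synthesis, was dim in every liver. Its values ran from 6.57 to 6.73 in Balb/c and from 6.48 to 6.81 in Balb/cBy, under the olfactory receptor level on all arrays. The difference was -0.014 ± 0.11 (SE), and that of the second probe set 0.056 ± 0.089 (SE). Beyond the 3 genes just named, 25 of 26 genes of glutathione metabolism were measured, 19 on the higher and 6 on the lower side in Balb/cBy, with a median of 0.079. None passed in either direction by limma, and 3 had an unadjusted p under 0.05, all on the higher side, where 2.64% of all probe sets were under it on the higher and 1.18% on the lower side. Without Balb/c replicate 3 the list stood at 13 higher and 12 lower, with a median of 0.017. The 3 genes were Dpep1, a dipeptidase that acts on glutathione breakdown products (0.50 ± 0.13 SE), Gpx3, the secreted glutathione peroxidase (0.35 ± 0.12 SE), and Slc1a5, a neutral amino acid transporter (0.29 ± 0.11 SE). Gss, glutathione synthetase, which acts right after glutamate-cysteine ligase, differed by 0.23 ± 0.11 (SE), on the other side from Gclc and Gclm. The groups did not overlap in 3 of the 25, Dpep1, Gpx3 and the peroxidase gene Gpx1 (0.082 ± 0.086 SE), where 7.95% of all probe sets did not overlap.

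Srxn1, sulfiredoxin, which repairs over-oxidised peroxiredoxins, was the only 1 of the 10 genes whose groups did not overlap, where 7.95% of all probe sets were so separated, 4.42% with Balb/cBy higher and 3.53% with Balb/cBy lower. Its values were 9.86, 9.73 and 9.91 in Balb/c and 9.95, 10.60 and 10.07 in Balb/cBy. The gap between the groups was narrow, and Balb/cBy replicate 2 stood far above the rest. The difference was 0.38 ± 0.17 (SE), or 1.30 times the Balb/c level with an interval of 0.996 to 1.69, at an unadjusted p of 0.0525 and an adjusted p of 0.999 by limma. Without Balb/cBy replicate 2 it was 0.18 ± 0.11 (SE), and without Balb/cBy replicate 1 it was 0.51 ± 0.16 (SE), neither passing after adjustment. Txnrd1, thioredoxin reductase of the cytosol, read between 9.65 and 9.84 in Balb/c and between 9.68 and 9.94 in Balb/cBy. Its difference of 0.038 ± 0.11 (SE) had an interval of -0.21 to 0.28.

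The wider thioredoxin and peroxiredoxin system was not called either. Of 19 genes 16 were measured, 9 on the higher and 7 on the lower side, with 0 passing and 0 at an unadjusted p under 0.05 by limma. The median was 0.046, and -0.052 without Balb/cBy replicate 2. Msra, a methionine sulfoxide reductase, differed by 0.20 ± 0.088 (SE). It was the only 1 of the 16 whose groups did not overlap, where 7.95% of all probe sets did not overlap. Prdx2 and Prdx4, peroxiredoxins of the cytosol and the endoplasmic reticulum, differed by 0.17 ± 0.12 and 0.23 ± 0.17 (SE). Sesn2, a stress-induced sestrin, differed by -0.19 ± 0.12 (SE).

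Because ATF4 shares some targets with NRF2, a list of ATF4 and its targets was read beside these genes. All 20 were measured, 12 on the higher and 8 on the lower side, with a median of 0.096. By limma 0 passed, and 4 had an unadjusted p under 0.05, all on the higher side in Balb/cBy, where 2.64% of all probe sets were under it on that side. Without Balb/c replicate 3, or without Balb/cBy replicate 2, the list stood at 10 higher and 10 lower, with medians of 0.0047 and 0.0030. The 4 genes were Asns, asparagine synthetase (0.39 ± 0.12 SE), Slc7a5, an amino acid transporter (0.38 ± 0.12 SE), Atf4 itself (0.34 ± 0.11 SE) and Ddit3, the stress factor CHOP (0.46 ± 0.17 SE). The groups did not overlap in 5 of the 20, where 7.95% of all probe sets did not overlap. These were the same 4 and Fgf21, which was on the lower side in Balb/cBy (-0.21 ± 0.098 SE). Ddit3 lay under the olfactory receptor level on average, and only its value on Balb/cBy replicate 2 (8.48) lay above it. Slc7a11, whose promoter stretch above holds TGATGCAA on both strands, cannot be read against the 4 genes. Both of its probe sets lay under the olfactory receptor level on every array.

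Hmox1, heme oxygenase 1, which opens the heme ring, had the largest mean difference of the 10 genes. It read 9.08, 9.30 and 8.75 in Balb/c and 9.16, 9.40 and 9.81 in Balb/cBy. The groups overlapped, since the lowest Balb/cBy array lay below the highest Balb/c array. The difference was 0.41 ± 0.19 (SE), or 1.33 times the Balb/c level with an interval of 0.977 to 1.81, and did not pass (limma adjusted p = 0.999, unadjusted 0.0656). It was 0.26 ± 0.19 (SE) without Balb/c replicate 3 and 0.23 ± 0.18 (SE) without Balb/cBy replicate 3, the arrays with the lowest and the highest value. Without Balb/cBy replicate 1 it was 0.56 ± 0.19 (SE).

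Macrophages, which clear red cells in liver, are a known site of Hmox1 expression, and their markers were read beside it. Of 14 Kupffer cell and macrophage markers, all measured, 9 were on the higher side in Balb/cBy, with a median of 0.098. Their mean log2 value per array ran from 9.46 to 10.16 in Balb/c and from 9.73 to 10.13 in Balb/cBy. It was lowest on Balb/c replicate 3, which also had the lowest Hmox1 value. Without that array the markers turned, to 5 higher and 9 lower with a median of -0.17. They stood at 12 higher and 2 lower (median 0.26) without Balb/c replicate 2, and at 11 and 3 (median 0.21) without Balb/cBy replicate 1. Hmox1 without Balb/c replicate 3 was 0.26, as given above, and the part of macrophages in its difference was not tested. Other genes of heme and iron handling did not pass. Of 17 genes 15 were measured, 8 higher and 7 lower. At an unadjusted p under 0.05 by limma there were 0, and the median was 0.063. That median was -0.060 without Balb/c replicate 3 and 0.084 without Balb/cBy replicate 1. Hmox2, the constitutive heme oxygenase, differed by 0.26 ± 0.14 (SE), Tfrc, the transferrin receptor, by 0.41 ± 0.25 (SE), and Alas1, the first enzyme of heme synthesis, by 0.44 ± 0.28 (SE). Slc40a1, the iron exporter ferroportin, differed by -0.22 ± 0.23 (SE).

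Nqo1, a quinone reductase often used as the reporter of NRF2, was on the lower side in Balb/cBy. It read 8.24, 7.93 and 7.80 in Balb/c and 7.58, 7.96 and 7.88 in Balb/cBy, all but 1 of them under the olfactory receptor level of 8.02. The groups overlapped widely. The difference was -0.18 ± 0.15 (SE), with an interval from -0.52 to 0.15. It was -0.062 without Balb/c replicate 1 and -0.074 without Balb/cBy replicate 1. Nqo1 is also a target of the aryl hydrocarbon receptor, and of 9 genes of that receptor's battery 8 were measured, with 0 passing, 0 at an unadjusted p under 0.05 and a median of 0.12 (0.055 to 0.15 with 1 array left out). Its dimerisation partner Arnt differed by 0.21 ± 0.11 (SE), and the target genes Cyp1a2 by 0.21 ± 0.12, Aldh3a1 by -0.20 ± 0.14 and Cyp1a1 by 0.12 ± 0.11 (SE). On average only 4 of the 8 genes lay above the olfactory receptor level, and Aldh3a1 lay under it.

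Osgin1, an oxidative stress-induced growth inhibitor, had the widest spread over the 6 arrays, with a root mean square deviation of 0.325, hardly above that of Hmox1 (0.323). It read 11.01, 11.67 and 11.43 in Balb/c and 12.07, 11.46 and 11.33 in Balb/cBy. Balb/cBy replicate 1 stood above all other arrays, while the remaining Balb/cBy arrays lay inside the range of Balb/c. The difference was 0.25 ± 0.23 (SE), with an interval from -0.27 to 0.77. It was 0.027 without Balb/cBy replicate 1 and 0.072 without Balb/c replicate 1.

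**Figure D2:**
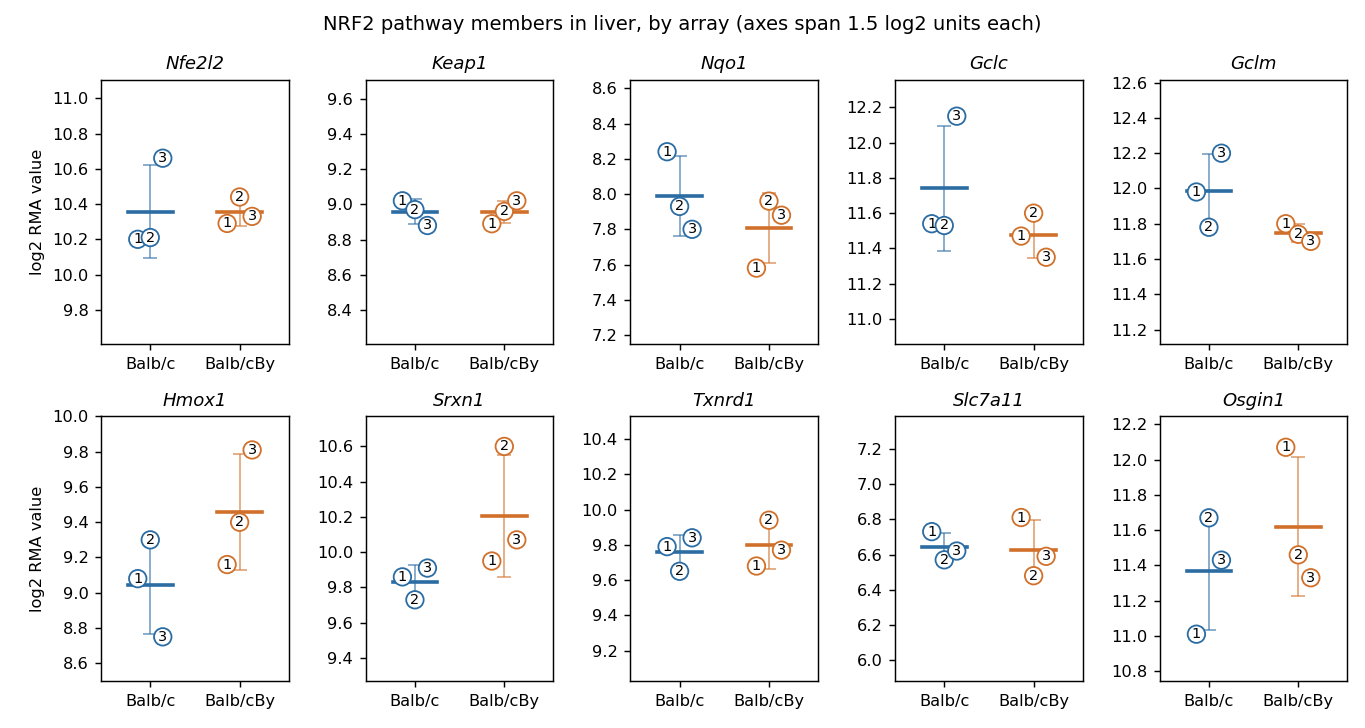
Deposited log2 RMA value (vertical axis, each spanning 1.5 log2 units) of the main probe set of each of the 10 genes on the 3 Balb/c and 3 Balb/cBy arrays; circles carry the replicate number, thick lines are group means and thin bars the SD. Srxn1 is the gene whose groups do not overlap, Balb/c replicate 3 is highest for Nfe2l2 (10.66), Gclc (12.15) and Gclm (12.20), and Balb/cBy replicate 1 is highest for Osgin1 (12.07).

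Among 45 further targets of NRF2, for conjugation, export, NADPH supply and iron storage, 33 were measured, 19 on the higher and 14 on the lower side with a median of 0.022. That median was -0.036 when Balb/c replicate 2 was left out and -0.023 when replicate 3 was. For Balb/cBy the same replicates gave -0.031 and -0.0021. Leaving out replicate 1 gave 0.074 for Balb/c and 0.069 for Balb/cBy. By limma 0 passed, and 1 of the 33 had an unadjusted p under 0.05, where 3.82% of all probe sets were under it. This was Abcg2, an efflux transporter, which read 9.98 to 10.17 in Balb/c and 9.49 to 9.88 in Balb/cBy. Its difference was -0.38 ± 0.12 (SE). Gstm1, a glutathione transferase, differed by 0.17 ± 0.12 (SE), Abcc3, an export pump for conjugates, by -0.23 ± 0.19 (SE), and Gpx2, a glutathione peroxidase dim in these livers, by 0.16 ± 0.13 (SE). A list of first-line antioxidant enzymes and oxidant sources had 18 of 20 genes measured, 13 on the higher and 5 on the lower side, with a median of 0.031 and 0 passing. Without Balb/cBy replicate 2 its sides were 9 and 9. Mt1, a metallothionein, was its 1 gene of 18 at an unadjusted p under 0.05 by limma, beside the same 3.82% of all probe sets. Mt1 differed by 0.88 ± 0.33 (SE) with overlapping groups, and Mt2 by 0.57 ± 0.27 (SE). Ncf4, a subunit of the phagocyte oxidase, differed by 0.18 ± 0.13 (SE), and Cat, catalase, by -0.12 ± 0.085 (SE).

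**Figure D3:**
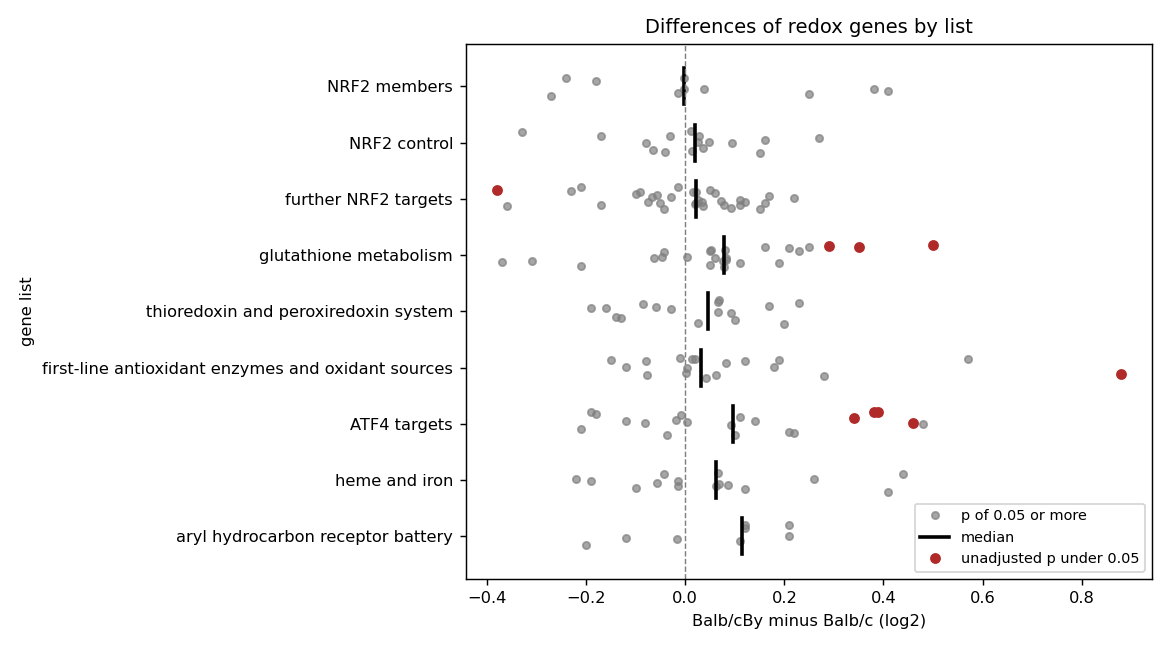
Balb/cBy minus Balb/c difference in log2 units of each measured gene (points) by list, with a black line at the list's median and red for an unadjusted p under 0.05 by limma; the vertical scatter within a list has no meaning. The 10 pathway genes centre on -0.0018 with no red point, and the red points of the ATF4 and glutathione lists (4 and 3 genes) lie to the right.

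The genes were then compared by their pattern over the 6 arrays, as the root mean square distance between values centred on each gene's own mean, against 149 measured genes of the lists. This is a description, and it favours genes of similarly small or large spread. Gclc lay nearest to its partner subunit Gclm, at a distance of 0.131 log2 units, followed by Aox1 (0.15), an aldehyde oxidase, and Nfe2l2 (0.152). Gclm lay nearest to Sesn3 (0.0883), then Gclc and Pon1 (0.136). Nfe2l2 lay nearest to Mgst1 (0.0799), a microsomal glutathione transferase, Abcc2 (0.102) and Sesn3 (0.115). Gclc, Gclm and Nfe2l2 share a high value on Balb/c replicate 3, where Gclc stood 0.55, Gclm 0.34 and Nfe2l2 0.30 above their means.

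Srxn1 had another pattern, and the nearest genes to it were Ddit3 (0.0995), Atf4 (0.125) and Gstm1 (0.134). On Balb/cBy replicate 2 Srxn1 stood 0.58 above its mean, Ddit3 0.64 and Atf4 0.35. All of them were below their means on the 3 Balb/c arrays. On Balb/cBy replicate 1 Srxn1 (-0.07) and Ddit3 (-0.10) were below their means too, and Atf4 stood 0.06 above. On Balb/cBy replicate 3 Srxn1 stood 0.05, Ddit3 0.15 and Atf4 0.10 above. Balb/cBy replicate 2 was also the only array on which Ddit3 lay above the olfactory receptor level. Hmox1 lay nearest to Dpep1 (0.131), Ncf4 (0.166) and Gpx4 (0.18), and Nqo1 to Gsto1 (0.0696), Sesn1 (0.0864) and Msrb2 (0.0923). Txnrd1 lay nearest to Btrc (0.0533), Txnrd2 (0.0579) and Gsr (0.0583), and Keap1 to Abcc4 (0.045), Gpx1 (0.0485) and Trib3 (0.049). Slc7a11 lay nearest to Cyp1b1 (0.0561), Nfe2l3 (0.0648) and Trim16 (0.0723). Osgin1 lay nearest to Slc1a4 (0.222), Sqstm1 (0.238) and Ugdh (0.239). Distances follow the spread of a gene, which was 0.325 for Osgin1 and 0.0546 for Keap1, so the short distances of Keap1 are those of genes that hardly varied.

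**Figure D4:**
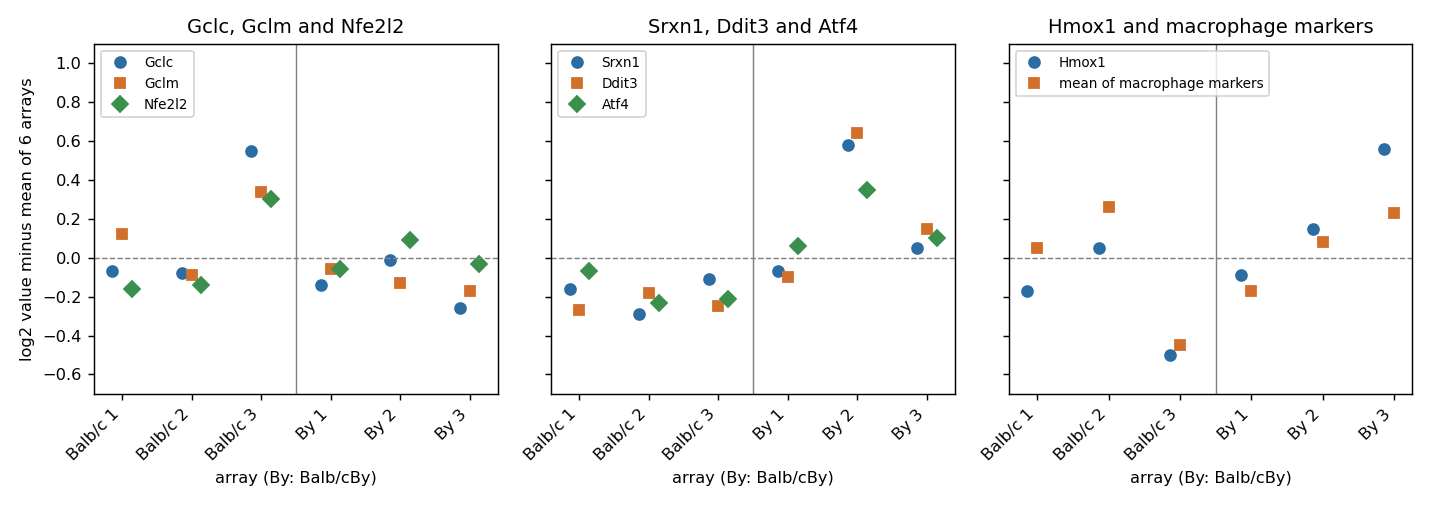
Log2 value minus the mean of the 6 arrays (vertical axis) for each array, Balb/c left and Balb/cBy (By) right of the grey line. Gclc, Gclm and Nfe2l2 peak on Balb/c replicate 3 (0.55, 0.34 and 0.30), Srxn1, Ddit3 and Atf4 on Balb/cBy replicate 2 (0.58, 0.64 and 0.35), and Hmox1 and the mean of 14 macrophage markers are both lowest on Balb/c replicate 3 (-0.50 and -0.45).

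The direction of 6 genes held whichever array was left out: Hmox1, Srxn1 and Osgin1 stayed on the higher side in Balb/cBy and Gclc, Gclm and Nqo1 on the lower side. Their sizes did not hold. Leaving out 1 array gave 0.23 to 0.56 for Hmox1, 0.18 to 0.51 for Srxn1 and 0.027 to 0.40 for Osgin1. The ranges were -0.38 to -0.064 for Gclc, -0.35 to -0.13 for Gclm and -0.28 to -0.062 for Nqo1. Nfe2l2, Keap1, Txnrd1 and Slc7a11 changed sign when single arrays were left out. None of the 10 genes passed after adjustment in any of these fits. Array weights counted Balb/c replicate 1 (2.04) and Balb/cBy replicate 3 (2.47) most, and the other arrays at 0.471 to 0.824. Balb/cBy replicate 3 is the array with the highest Hmox1 value (9.81). With these weights 31 probe sets (0.132%) passed in limma, none of them of the 10 genes. There 3 of the 10 had an unadjusted p under 0.05, against 7.83% of all probe sets: Hmox1 at 0.56, Srxn1 at 0.34 and Gclm at -0.26, with limma adjusted p-values of 0.525 or more.

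**Figure D5:**
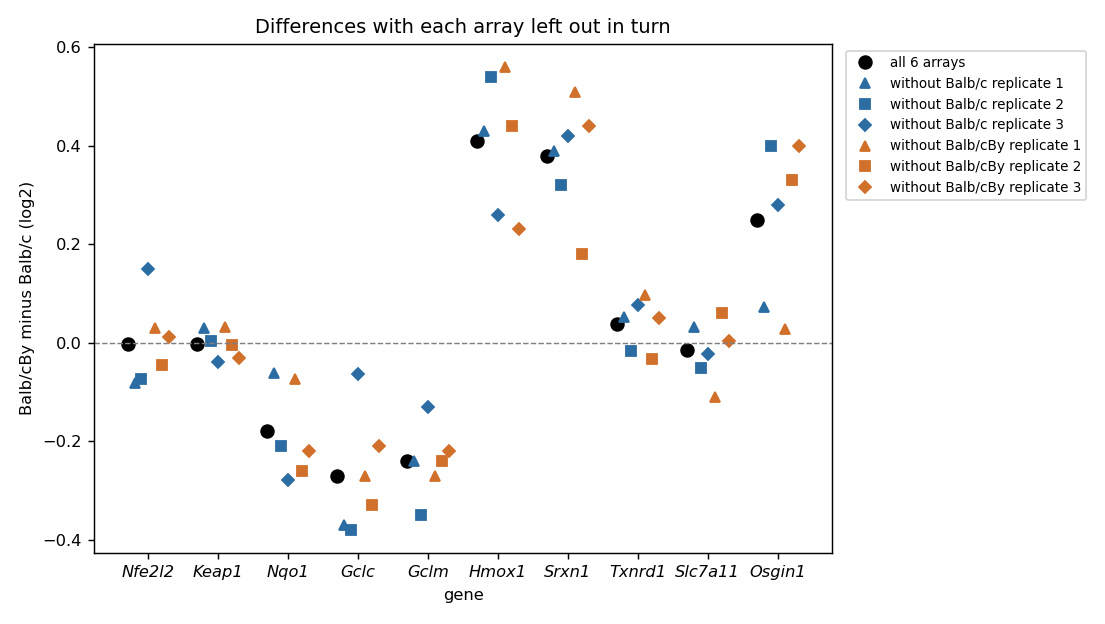
Balb/cBy minus Balb/c difference in log2 units of each gene with all 6 arrays (black) and with each array left out in turn (blue for a Balb/c array, orange for a Balb/cBy array). Hmox1 and Srxn1 stay above 0 (0.23 to 0.56 and 0.18 to 0.51), and Gclc comes close to 0 (-0.064) without Balb/c replicate 3.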

How the data were processed

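Liver RNA of 6 mice was hybridised to Affymetrix whole-transcript arrays, 1 per mouse. The authors deposited log2 values, 1 per probe set and array, made with RMA per the submitters' processing notes. RMA corrects background, normalizes between arrays and summarizes probes, which compresses differences of dim genes. Software version and genome build are not given in the sources used here. Of 41345 probe sets, the 23521 with 1 gene symbol in the platform annotation were tested, covering 22180 genes. Groups came from the sample titles. limma 3.58.1 in R 4.3.3 fitted the group to every probe set with empirical Bayes moderation, two-sided, and adjusted by Benjamini-Hochberg across the tested probe sets, with 0.05 as the threshold. The script was tested on simulated data. The number of arrays limits the precision, and 3 against 3 arrays cannot reach an exact permutation p under 0.1.

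The members, gene lists and tests were chosen with earlier results of these data known. Named were the 10 members, the 4 genes of smallest p in each list, the 3 nearest in pattern to each member, and Acads. Other genes mentioned (Alb, Ass1, Jchain, Fgf21) were chosen after their values were seen. Genes without a probe set of their own were left out. Alternatives were a replicate block, array weights, other moderation, other normalizations, other choices of probe sets, and arrays left out. Leaving each array out of the list counts was added after seeing the data, as plain differences of group means with no test.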

Additional observations from a re-analysis of the deposited data

How the results depend on the processing

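None of the 10 genes passed in any of the 17 alternative settings; their adjusted p ran from 0.448 to 1. With the probe sets under the olfactory receptor level left out, Nqo1 and Slc7a11 were not fitted. The count of genes at an unadjusted p under 0.05 was 3 with array weights (Gclm, Hmox1 and Srxn1). There 7.83% of all probe sets were under it. With renewed quantile normalization the count was 2 (Gclm and Srxn1), where 4.11% of all were under it. With 1 array left out it was 0 to 2, where 2.05% to 8.21% of all were under it. The count was 2 without Balb/c replicate 2 (2.93% of all) and without Balb/cBy replicate 1 (8.21% of all). It was 2 without Balb/c replicate 3 and Balb/cBy replicate 1 together (Hmox1 and Srxn1, where 9.87% of all were under it). Over all probe sets array weights called 31, leaving out 1 array 0 to 4, and leaving out those 2 arrays 16. The median of the 10 genes lay between -0.038 and 0.047 throughout.

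The genes with differences near 0 turned sign. Nfe2l2 was 0.064 with array weights, 0.015 with median centring and 0.18 without those 2 arrays; Keap1 was 0.0046 with array weights, 0.015 with median centring, 0.036 with averaged probe sets and 0.074 with the dimmer probe set. Txnrd1 was -0.029 with renewed quantile normalization. Slc7a11 was 0.0031 with renewed quantile normalization, 0.0033 with median centring, 0.021 with averaged probe sets and 0.056 with the dimmer one. With 1 array left out the ranges were -0.081 to 0.15 for Nfe2l2, -0.039 to 0.032 for Keap1, -0.034 to 0.096 for Txnrd1 (0.14 without those 2 arrays) and -0.11 to 0.061 for Slc7a11. The cause was not tested. Hmox1, Srxn1, Osgin1, Gclc, Gclm and Nqo1 kept their sign in every setting that fitted them. They had the largest differences among the members, and other moderation or the replicate block could not change a difference.

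The labels give no pairing of same-numbered arrays of the groups. Their deviations from the group means correlated at -0.323, -0.193 and -0.232 across genes. Deviations sum to 0 within each group, so these values cannot show whether such arrays share more than a number. With the replicate block 0 genes passed, as without it, and the median stayed at -0.0018. Scaling moved the median over all probe sets to -0.0084 and 0.014 at most.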

Other observations

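Markers of other cell types were read with the same fit, since several genes of the pathway are also expressed outside hepatocytes. By limma 0 markers of any list passed after adjustment. Of 10 stellate cell markers, 9 were on the higher side in Balb/cBy, with a median difference of 0.18 in log2 units, and 6 with a median of 0.070 without Balb/c replicate 3. Of 10 neutrophil markers, 8 were on the higher side with a median of 0.11, or 0.055 without Balb/c replicate 3, but only 4 of the 10 had means above the olfactory receptor level. Of 9 measured T, B and NK cell markers, 7 were on the lower side with a median of -0.13, or -0.19 without that array. Of these 9, 3 were above the olfactory receptor level. The immunoglobulin joining chain gene Jchain differed by 1.12 the other way, with values of 6.91 to 7.10 in Balb/c and 7.44 to 8.70 in Balb/cBy.

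The 10 endothelial markers had a median of 0.048, which was -0.016 without Balb/c replicate 3, and the 15 hepatocyte markers had one of 0.017. The medians were -0.063 over 6 cholangiocyte markers, 0.13 over 6 adipocyte markers (0.26 without Balb/c replicate 3) and 0.040 over 2 erythroid markers (-0.024 without it). The 7 measured markers of exocrine pancreas were all on the lower side in Balb/cBy, with a median of -0.28. Without Balb/c replicate 3 they were 5 lower and 2 higher, with a median of -0.11. The part of these cell types in the differences of the 10 genes was not tested.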
